A study of Mus musculus with 25 samples.

Results

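The A20 and Toll-like receptor (TLR) signalling brakes are 10 genes, taken by symbol from the deposited count tables (10 of 24411 gene symbols): Tnfaip3, Tnip1, Tnip3, Irak2, Irak3, Irak4, Traf1, Traf6, Myd88 and Tollip. RNA-seq was performed on 25 samples in 9 conditions of mouse macrophages. The primary cells were BMDMs, macrophages grown from the bone marrow of C57BL/6 mice for 4 days in 25 ng/ml M-CSF, and the cell line was RAW264.7, a mouse macrophage-like line transformed by a leukemia virus. The paper states that this line came from Balb/c mice and was grown in RPMI, and the BMDMs in DMEM. Control BMDMs (3 samples, cultured for 4 h without cytokine or LPS) served every BMDM comparison, whatever its time. IFN-γ-primed LPS-stimulated BMDMs received 100 U/ml IFN-γ and 100 ng/ml LPS for 1, 4, 12 or 24 h (3 samples each), and the length of the priming was not given in the labels. Alternatively activated BMDMs received 10 ng/ml IL-4 or 10 ng/ml IL-13 for 12 h (3 samples each). RAW264.7 cells were cultured for 4 h without stimulus or with 100 ng/ml LPS alone, with no IFN-γ (2 samples each). The methods call the BMDM samples biological triplicates with separate RNA for each, and do not say whether they came from different animals or cultures, nor what the RAW264.7 duplicates were. The p-values measure only the spread between these samples, which may in part be technical.

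LPS is sensed by TLR4, which recruits the adaptor MyD88. MyD88 assembles the kinases IRAK4, IRAK1 and IRAK2, and these engage TRAF6, a ubiquitin ligase whose chains activate the IKK complex and NF-κB. A20, the product of Tnfaip3, edits ubiquitin chains on TRAF6 and related proteins and so ends the signal, with the ABIN adaptors (Tnip1, Tnip3) binding A20 and ubiquitin, while IRAK-M (Irak3) and Tollip restrain the receptor complex and TRAF1 modulates TRAF-dependent signals. Several of these brakes are textbook targets of NF-κB itself.

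The promoters of 4 members are shown because they hold a match to a motif of a factor that LPS or IFN-γ is known to activate. Each is the RefSeq window of 300 bases, 250 before and 50 after the transcription start site, on build GRCm38.p6 and written 5′ to 3′ on the strand of the gene. Capitals mark matches to the 10-base κB consensus in Tnfaip3 (chr10:19015361-19015660, minus strand), Tnip1 (chr11:54962891-54963190, minus strand) and Tnip3 (chr6:65590148-65590447, plus strand). In Myd88 (chr9:119339969-119340268, minus strand) they mark the GAS and IRF matches, which overlap.
Tnfaip3: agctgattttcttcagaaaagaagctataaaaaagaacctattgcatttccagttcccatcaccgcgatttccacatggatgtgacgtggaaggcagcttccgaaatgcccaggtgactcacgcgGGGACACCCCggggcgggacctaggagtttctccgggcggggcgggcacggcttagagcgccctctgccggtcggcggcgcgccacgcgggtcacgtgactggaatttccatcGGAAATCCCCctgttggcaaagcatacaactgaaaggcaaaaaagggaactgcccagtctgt
Tnip1: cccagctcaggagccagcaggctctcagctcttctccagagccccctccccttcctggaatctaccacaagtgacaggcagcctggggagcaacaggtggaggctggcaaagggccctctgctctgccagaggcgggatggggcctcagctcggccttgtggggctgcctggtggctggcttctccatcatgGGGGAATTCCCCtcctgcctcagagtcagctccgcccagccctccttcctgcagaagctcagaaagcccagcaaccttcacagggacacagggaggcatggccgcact
Tnip3: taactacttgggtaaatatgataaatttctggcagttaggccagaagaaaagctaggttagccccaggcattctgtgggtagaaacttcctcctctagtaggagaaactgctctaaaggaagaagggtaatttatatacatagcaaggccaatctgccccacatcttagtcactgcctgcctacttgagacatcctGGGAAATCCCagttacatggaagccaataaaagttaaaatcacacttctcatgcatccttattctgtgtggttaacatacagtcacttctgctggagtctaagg
Myd88: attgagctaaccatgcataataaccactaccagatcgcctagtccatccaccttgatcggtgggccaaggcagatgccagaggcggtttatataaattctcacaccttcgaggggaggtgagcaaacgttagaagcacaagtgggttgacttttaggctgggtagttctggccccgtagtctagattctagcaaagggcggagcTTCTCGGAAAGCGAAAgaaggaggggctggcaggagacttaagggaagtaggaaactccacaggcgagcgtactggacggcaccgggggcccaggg

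All 10 members had a promoter in the table, with 12 windows in all since Tnfaip3 and Irak3 each have 2. The motifs searched on both strands were the κB consensus, the IRF motif (GAAA, any 2 bases, GAAA), the STAT motif GAS (TTCNNNGAA) and the AP-1 motif TGANTCA. The κB consensus matched in 3 of 10 members and in 3 of their 12 windows. The matches were at bases -125 and -12 of Tnfaip3, -54 of Tnip3, and -58, -57 and -56 of Tnip1, where the 3 matches overlap. Of all 32851 windows in the table, 4.51% held a κB match. The IRF motif matched once, at -40 of Myd88 (3.44% of all windows). GAS matched at -46 of Myd88 and -199 of Tnip1 (8.30% of all windows), and AP-1 at -136 of the first Tnfaip3 window (7.81% of all windows). The windows of Irak2, Irak3, Irak4, Traf1, Traf6 and Tollip held none of these letters, which says nothing of sites elsewhere. For Tnip3, Myd88 and Tollip the only window lies inside the gene span given below, away from the annotated start of the gene.

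**Figure D1:**
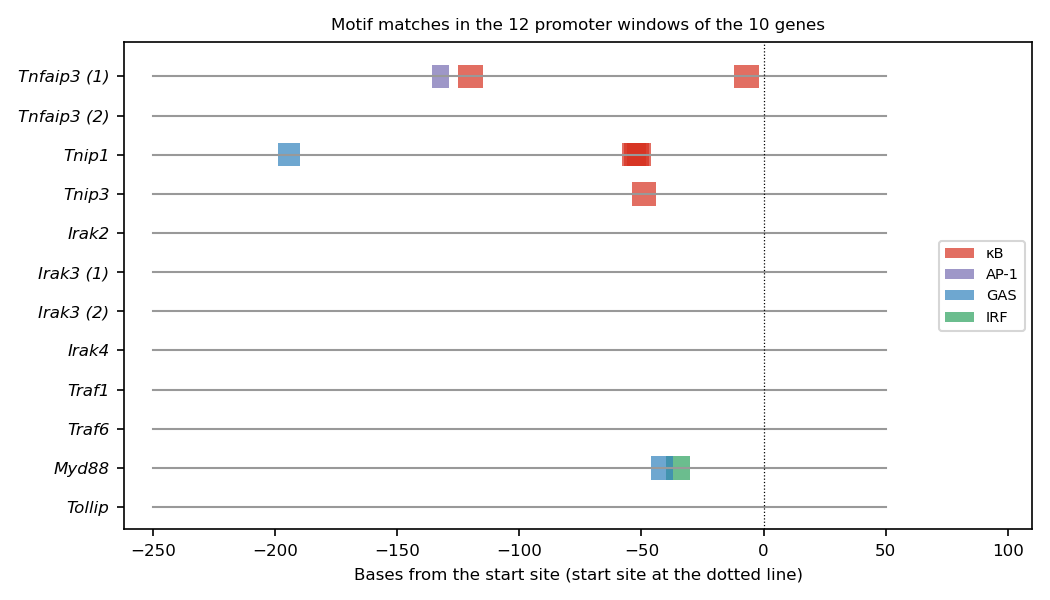
Motif matches in the 12 RefSeq promoter windows of the 10 genes, one line per window, with the distance from the start site in bases on the horizontal axis. κB matches (red) are in the windows of Tnfaip3, Tnip1 and Tnip3, the IRF match (green) is in Myd88, GAS (blue) is in Myd88 and Tnip1 and AP-1 (purple) is in Tnfaip3.

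The libraries held 2378639 to 3357300 counts on genes, of which the ribosomal precursor Rn45s took 20.1% to 39.8% and was left out, leaving 1502618 to 2532496. Levels below are normalized read counts, counts scaled to library size (CPM) with TMM factors, and a gene was called at an adjusted p of at most 0.01. The macrophage markers Adgre1, Cd68, Csf1r, Itgam, Lyz2, Fcgr1 and Mpeg1 were detected in both cell types, and the 8 markers on this list summed to 22081 to 36488 CPM in BMDM samples. In RAW264.7 the sum was 6721 to 7829 CPM and Mertk had no counts. Lymphoid markers summed to at most 0.577 CPM in any sample, and fibroblast and endothelial markers to 29.7 to 65.5 CPM in BMDM and at most 1.39 CPM in RAW264.7 samples. Neutrophil markers moved with the treatment: those on the list summed to between 8.68 and 16.6 CPM in control BMDMs and between 26.4 and 37.4 CPM after 1 h, reached at most 42.7 CPM after 4 h and 28.3 CPM after 12 h, and lay between 17.4 and 20.2 CPM after 24 h. The 2 tested, S100a8 and S100a9, were both called higher at 1 and 4 h. Elane and Mpo had means of at most 0.215 CPM in control and IFN-γ-primed LPS groups, and Ly6g, also listed, was absent from the counts. The part of neutrophil content in the members' changes was not tested. The share of Rn45s counts on the opposite strand was 0.00603% to 0.0214% in 9 libraries (24 h and both cytokines). It was 0.0386% to 0.122% in the other 12 BMDM libraries and 0.0199% to 0.0283% in the 4 RAW264.7 libraries. Whatever sets the 9 libraries apart and the treatment cannot be told apart in those 3 groups. Nor can cell type and whatever sets the RAW264.7 libraries apart from those of control and 4 h BMDMs. Without TMM factors the median change of all genes shifted by -0.19 (1 h), -0.53 (4 h), -0.31 (12 h) and -0.22 (24 h) on the log2 scale, by -0.18 in RAW264.7 and by 0.25 between the unstimulated cell types, and member calls that depend on this are named beside their values.

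In IFN-γ-primed LPS-stimulated BMDMs, most of the 10 members were upregulated at every time, with A20 leading within 1 h and IRAK-M last. The list mixes brakes with forward parts of the pathway, namely Myd88, Irak2, Irak4 and Traf6. The members not called at 1 h were Irak3, Irak4 and Tollip. All samples are bulk, in which fewer cells of a type and less RNA per cell cannot be told apart. At 1 h, 7 of 10 members were higher than in the control and 0 lower, against 14.7% of all genes tested higher and 11.3% lower. At 4 h, 8 were higher and 0 lower, with a background of 26.0% higher and 25.6% lower. At 12 h and at 24 h, 7 were higher and 1, Tollip, was lower, and the background was 23.9% and 23.4% at 12 h and 23.9% and 21.3% at 24 h. The median log2 fold change of the 10 members was 1.24 (1 h), 2.39 (4 h), 2.09 (12 h) and 1.85 (24 h), where the median of all genes tested lay between -0.07 and 0.02. In the counts of 0 lower members, no member was lower at an unadjusted p under 0.05 in edgeR's test, and DESeq2 also called 0 lower. Irak4 was the only member with no call at any of the 4 times.

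**Figure D2:**
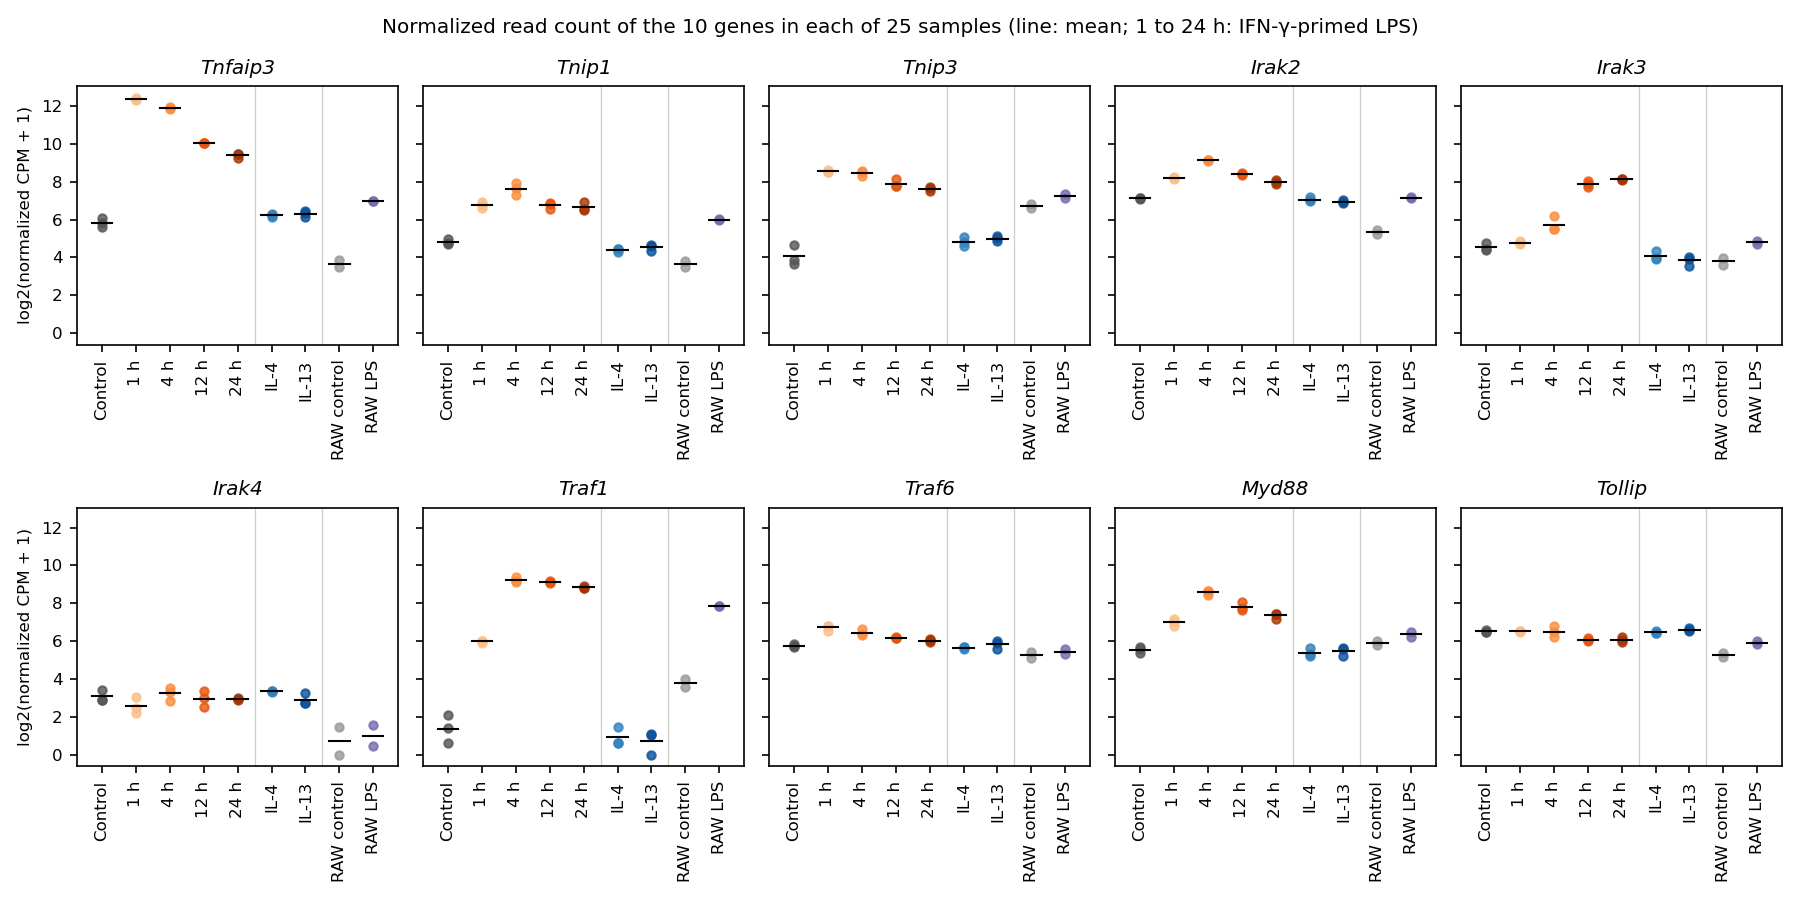
Level of each of the 10 genes in each of the 25 samples, as log2(normalized CPM + 1), with a line at the mean of the plotted values of each condition (3 BMDM or 2 RAW264.7 samples). Tnfaip3 reaches 5150 to 5541 CPM at 1 h, Irak3 is highest at 24 h, and Tnfaip3 lies at 69.3 to 85.1 CPM in the IL-4 and IL-13 samples.

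Tnfaip3 encodes A20, the ubiquitin-editing enzyme of the pathway, and lies on chromosome 10 (19000910 to 19015657, minus strand, mm10 as for all positions of genes here). Its level was 54.7, 47.2 and 66.8 CPM in the 3 control samples and 5150, 5386 and 5541 CPM at 1 h. The samples at 4 h were at 3964, 3770 and 3698 CPM, those at 12 h at 1047, 1049 and 1046 CPM and those at 24 h at 607, 705 and 705 CPM. No sample of one time overlapped with a sample of another, and every stimulated sample was far above the control. Against the control the log2 fold change was 6.54 at 1 h (SE 0.11, edgeR adjusted p = 4.0e-41), a 93.0-fold rise. It was 6.02 at 4 h, 4.17 at 12 h and 3.57 at 24 h, each upregulated. Each step down was itself a call: -0.52 from 1 to 4 h (SE 0.08, edgeR adjusted p = 1.1e-06), -1.85 from 4 to 12 h and -0.60 from 12 to 24 h (log2). The 28526 sense counts over the 3 samples at 1 h make this the best measured member.

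The ABIN adaptors followed different courses. Tnip1 (ABIN1), on chromosome 11 (54910785 to 54962917, minus strand), had 25.7, 25.5 and 29.9 CPM in the control, 121, 95.9 and 108 CPM at 1 h, and 242, 158 and 199 CPM at 4 h. At 12 h it was at 94.8 to 115 CPM and at 24 h at 88.9 to 120 CPM. All stimulated samples were above all control samples, and the 4 h samples were above those of every other time, while the samples at 1, 12 and 24 h overlapped. The log2 fold change against the control was 2.82 at 4 h (SE 0.16, edgeR adjusted p = 1.8e-19) and 1.97, 1.93 and 1.89 at 1, 12 and 24 h, all upregulated. From 12 to 24 h the difference was -0.05 (95% interval -0.31 to 0.22, log2), which did not pass the test.

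Tnip3 (ABIN3), on chromosome 6 (65525313 to 65634040, plus strand, with the RefSeq start site inside this span), had 13.4, 23.9 and 11.8 CPM in the control and 362, 362 and 395 CPM at 1 h. At 4 h the samples were at 319, 367 and 378 CPM, at 12 h at 218, 218 and 277 CPM and at 24 h at 182, 201 and 213 CPM. Every stimulated sample lay above every control sample by several fold, and the 1 h and 4 h samples overlapped. Its increase on the log2 scale was 4.48 at 1 h (SE 0.15, edgeR adjusted p = 2.0e-28), a 22.3-fold rise, and 4.38, 3.81 and 3.59 at 4, 12 and 24 h. The step from 1 to 4 h was -0.10 and not called, although it was -0.44 and called without TMM factors (edgeR adjusted p = 3.2e-04). From 4 to 12 h Tnip3 fell by 0.57 on the log2 scale. From 1 to 24 h its mean went from 373 ± 19.1 to 199 ± 15.3 CPM (SD, n = 3), beside 5359 ± 197 to 672 ± 56.4 CPM (SD, n = 3) for Tnfaip3.

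The members of the IRAK kinase family changed in 3 different ways. Irak2, a kinase-like relay that prolongs the response, lies on chromosome 6 (113638467 to 113695026, plus strand). It had 138, 133 and 142 CPM in the control, 284 to 304 CPM at 1 h, 538 to 567 CPM at 4 h, 327 to 352 CPM at 12 h and 231 to 267 CPM at 24 h. No stimulated sample overlapped with the control, and the 4 h samples were above those of every other time. Its log2 fold change peaked at 1.96 at 4 h (SE 0.09, edgeR adjusted p = 1.5e-23), from 1.06 at 1 h to 0.86 at 24 h, upregulated at all 4 times.

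Irak3 (IRAK-M), the brake of this family, lies on chromosome 10 (120141648 to 120202130, minus strand), where Tmbim4 overlaps it on the other strand. It had 26.3, 21.2 and 19.8 CPM in the control and 25.7, 27.7 and 24.8 CPM at 1 h, and the groups overlapped. The 4 h samples were at 71.7, 45.1 and 43.5 CPM, the 12 h samples at 213, 233 and 262 CPM and the 24 h samples at 281, 274 and 282 CPM. From 4 h on, no sample overlapped with the control, and each later time lay above the earlier one. Relative to the control, Irak3 differed by 0.18 on the log2 scale at 1 h (95% interval -0.20 to 0.56, not called), 1.18 at 4 h (SE 0.18, edgeR adjusted p = 2.0e-07), 3.34 at 12 h and 3.63 at 24 h (SE 0.14, edgeR adjusted p = 3.1e-27), a 12.4-fold rise. The 4 h value was set in part by 1 sample at 71.7 CPM, and it ranged from 0.94 to 1.33 with each sample left out, called throughout. The step from 12 to 24 h was 0.28 (edgeR adjusted p = 0.044) and missed the call, but was called without TMM factors (0.37, edgeR adjusted p = 0.0067).

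The balance of IRAK-M and IRAK2 transcripts moved during the time course. Within a sample, the ratio of Irak3 to Irak2 in CPM per kb of exon was 0.138 to 0.189 in the control samples, 0.0866 to 0.0903 at 1 h and 0.0794 to 0.126 at 4 h. It was 0.636 to 0.739 at 12 h and 1.05 to 1.20 at 24 h. All samples at 1 and 4 h were below the control samples and all at 12 and 24 h above them. This ratio is given as a description with no test.

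Irak4, the kinase at the head of the complex, lies on chromosome 15 (94543643 to 94581815, plus strand), where Twf1 overlaps it on the other strand. It had 7 to 18 counts in each BMDM sample. The control samples were at 9.66, 6.51 and 6.41 CPM and the 12 stimulated samples ranged from 3.54 to 10.7 CPM, so the groups overlapped at every time. Changes on the log2 scale lay between -0.59 and 0.12. At 1 h its 95% interval was -1.31 to 0.12, so a fall of more than 2-fold could not be told from no change at this depth.

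Myd88, the adaptor of the receptor, lies on chromosome 9 (119335934 to 119341411, minus strand). It had 50.4, 40.7 and 47.0 CPM in the control, 109, 129 and 142 CPM at 1 h and 405, 406 and 344 CPM at 4 h. The level was 199 to 263 CPM at 12 h and 145 to 173 CPM at 24 h. All stimulated samples were above the control, and the 4 h samples above every other time. It rose by 1.43 at 1 h, was 8.02-fold above the control at 4 h (SE 0.13 on the log2 scale, edgeR adjusted p = 6.7e-26), and remained upregulated by 2.24 at 12 h and 1.81 at 24 h (log2). The step from 12 to 24 h, -0.43, was called with all samples but not without the 12 h replicate 3 (-0.32, edgeR adjusted p = 0.030) or the 24 h replicate 1 (-0.36, edgeR adjusted p = 0.021), nor without TMM factors (-0.34, edgeR adjusted p = 0.015). The gene overlaps Acaa1a on the other strand and Slc22a14 on its own. Reads in the overlap with Slc22a14 may have been left out of the counts as ambiguous.

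Tollip, an adaptor that holds IRAK1 inactive, lies on chromosome 7 (141874813 to 141918507, minus strand) and was lower late. The control samples were at 88.5, 86.8 and 95.1 CPM and the 1 h samples at 92.9, 90.1 and 88.5 CPM. At 4 h it was at 73.5, 87.0 and 111 CPM, at 12 h at 62.9, 70.9 and 65.3 CPM and at 24 h at 72.3, 66.1 and 59.8 CPM. The 4 h samples were spread on both sides of the control, and all samples at 12 and 24 h were below it. On the log2 scale, the difference was -0.03 at 1 h and -0.05 at 4 h, neither called, -0.49 at 12 h (SE 0.13, edgeR adjusted p = 0.0012) and -0.46 at 24 h (SE 0.13, edgeR adjusted p = 0.0018). These calls depended on single samples: without control replicate 3 the 12 h value was -0.44 (edgeR adjusted p = 0.0103) and the 24 h value -0.41 (edgeR adjusted p = 0.015), and without the 24 h replicate 3 the latter was -0.37 (edgeR adjusted p = 0.027). Without TMM factors Tollip was lower already at 4 h (-0.58, edgeR adjusted p = 1.2e-04).

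The TRAF genes differed most in size of change. Traf1, an adaptor with no ligase domain, lies on chromosome 2 (34941750 to 34961772, minus strand). It had 1.61, 3.25 and 0.534 CPM in the control, which were 10 counts in all. It was at 62.7, 59.2 and 64.2 CPM at 1 h, 662, 563 and 569 CPM at 4 h, 531, 573 and 549 CPM at 12 h and 446, 479 and 449 CPM at 24 h. Stimulated and control samples were far apart, and the 4 h and 12 h samples overlapped. The log2 fold change was 5.03 at 1 h (SE 0.26, edgeR adjusted p = 4.0e-22), 8.27 at 4 h (SE 0.19, edgeR adjusted p = 1.3e-36), 8.16 at 12 h and 7.93 at 24 h. These folds rest on the few control counts: without control replicate 2, which held 6 of the 10, the 4 h value was 8.98 and those at 1, 12 and 24 h were 5.74, 8.88 and 8.65. Over all fits that left out a sample, the lowest values were 7.85 at 4 h and 4.61, 7.74 and 7.52 at 1, 12 and 24 h.

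Traf6, the ligase that A20 acts on, lies on chromosome 2 too (101678429 to 101701669, plus strand). It had 56.9, 49.9 and 52.4 CPM in the control and 91.2, 112 and 112 CPM at 1 h. It was at 77.9 to 99.4 CPM at 4 h, 69.5 to 73.3 CPM at 12 h and 60.6 to 67.6 CPM at 24 h. All stimulated samples lay above the control, with the difference smaller at each later time. On the log2 scale, Traf6 rose by 0.95 at 1 h (SE 0.13, edgeR adjusted p = 2.2e-08) and 0.66 at 4 h (SE 0.14, edgeR adjusted p = 5.0e-05). At 12 h it was 0.38 (edgeR adjusted p = 0.013) and at 24 h 0.27 (edgeR adjusted p = 0.078), not called. The 12 h value was called when all 25 samples were fitted together (0.43, edgeR adjusted p = 0.0062), and the 4 h value was not called without TMM factors (0.13, edgeR adjusted p = 0.40).

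**Figure D3:**
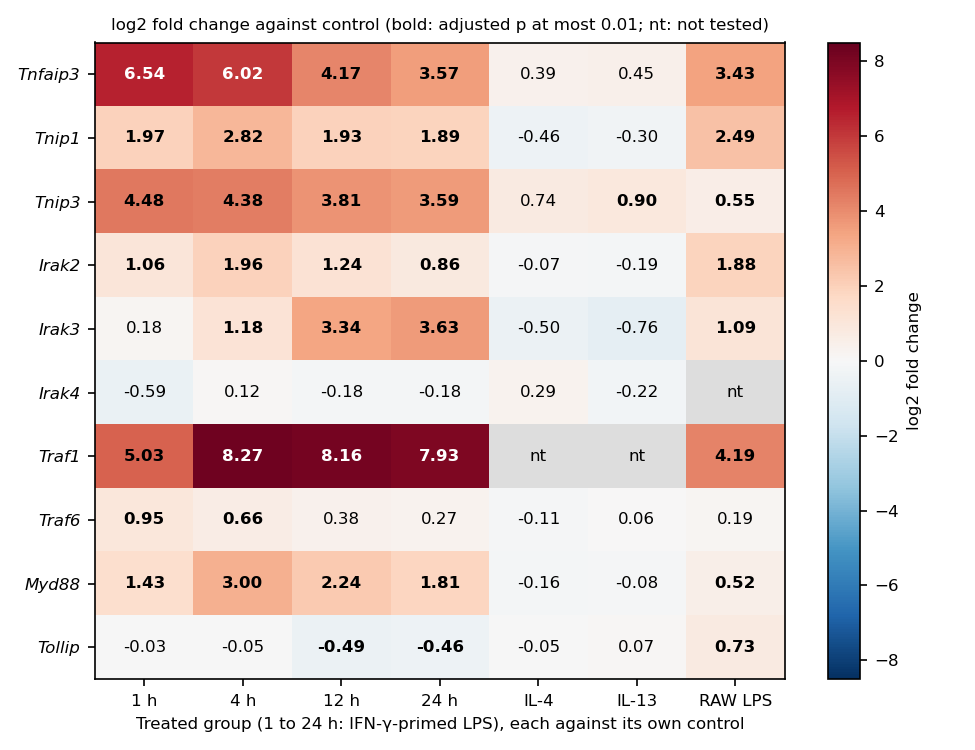
log2 fold change of each gene (rows) in each treated condition against its own control (columns), from edgeR, with called values in bold and nt where the gene had too few counts to be tested. Tnfaip3 goes from 6.54 at 1 h to 3.57 at 24 h, Irak3 from 0.18 to 3.63, and 1 value of the IL-4 and IL-13 columns is called.

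By peak time, the level of Tnfaip3 was highest at 1 h, those of Tnip1, Irak2 and Myd88 at 4 h and that of Irak3 at 24 h, each with all 3 samples above the samples of the other times. The means of Tnip3 and Traf6 were highest at 1 h and that of Traf1 at 4 h, with overlap to the next time, and without TMM factors the highest mean of Traf1 moved to 12 h. From 1 to 4 h, 5 members rose (Tnip1, Irak2, Irak3, Traf1 and Myd88) and 1 fell (Tnfaip3), against 19.8% of all genes higher and 19.1% lower. Without TMM factors 3 fell, with Tnip3 as given above and Traf6 (-0.63, edgeR adjusted p = 2.9e-05), which was at -0.29 (edgeR adjusted p = 0.049) with them. From 4 to 12 h, 1 rose (Irak3) and 6 fell (Tnfaip3, Tnip1, Tnip3, Irak2, Myd88 and Tollip), against 16.7% and 19.2%. The fall of Tollip in that step was not called without TMM factors (-0.22, edgeR adjusted p = 0.18), with no filter beyond 1 count (-0.42, edgeR adjusted p = 0.013), with DESeq2 (-0.45, adjusted p = 0.018) or without 4 h replicate 3 (-0.28, edgeR adjusted p = 0.13), 12 h replicate 1 or 12 h replicate 3. From 12 to 24 h, 0 rose and 3 fell (Tnfaip3, Irak2 and Myd88), against 5.31% and 8.90%. In that step 1 member, Irak3, was higher at an unadjusted p under 0.05 in edgeR's test, and DESeq2 called 0 higher, while without TMM factors Irak3 rose and Myd88 was not called.

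IL-4 and IL-13, the inducers of alternative activation, gave 1 call among the members, Tnip3 with IL-13. With IL-4, 0 of 9 members tested were called, against 4.38% of all genes higher and 3.25% lower. At an unadjusted p under 0.05 edgeR's test held 4 of them, Tnfaip3 and Tnip3 higher and Tnip1 and Irak3 lower, and DESeq2 called 0. With IL-13, 1 member was called higher (Tnip3) and 0 lower, against 5.61% and 4.49%, and Irak3 was lower at an unadjusted p under 0.05 in edgeR's test, while DESeq2 called 0 in either direction. Traf1 had 0 to 3 counts per sample in these groups and was not tested. Control BMDMs were cultured for 4 h and the cytokine groups for 12 h, so time in culture and cytokine cannot be told apart.

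Tnip3 had the largest of these changes. It was at 23.6, 32.2 and 26.8 CPM with IL-4 and at 31.1, 34.3 and 27.8 CPM with IL-13, beside 13.4, 23.9 and 11.8 CPM in the control. All IL-13 samples lay above the control samples, while 1 IL-4 sample lay just below the highest control sample. The log2 fold change was 0.90 with IL-13 (SE 0.21, edgeR adjusted p = 0.0010) and 0.74 with IL-4 (SE 0.22, edgeR adjusted p = 0.014). Both depend on the control samples: without control replicate 2 the IL-4 value was 1.11 (edgeR adjusted p = 6.3e-04) and the IL-13 value 1.28, and the IL-13 value was not called without control replicate 1 (0.78, edgeR adjusted p = 0.013), without control replicate 3 (0.72, edgeR adjusted p = 0.022) or with DESeq2 (0.92, adjusted p = 0.013).

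Tnfaip3 was at 70.2 to 77.3 CPM with IL-4 and 69.3 to 85.1 CPM with IL-13, above the 47.2 to 66.8 CPM of the control in every sample. The log2 fold change was 0.39 (SE 0.13, edgeR adjusted p = 0.042) and 0.45 (SE 0.13, edgeR adjusted p = 0.012), and neither was called. The IL-13 value passed the threshold without TMM factors (0.49, edgeR adjusted p = 0.0054), with RLE, with no filter beyond 1 count, in the fit of all 25 samples (0.47, edgeR adjusted p = 0.0037), without control replicate 3 (0.60, edgeR adjusted p = 0.0029) and without IL-13 replicate 3 (0.53, edgeR adjusted p = 0.0037). Irak3 was at 14.1 to 18.9 CPM with IL-4 and 10.7 to 15.5 CPM with IL-13, below the 19.8 to 26.3 CPM of the control in every sample. Its log2 fold change was -0.50 (edgeR adjusted p = 0.12) and -0.76 (SE 0.22, edgeR adjusted p = 0.011), and of the alternatives run the latter was called only without IL-13 replicate 1 (-0.86, edgeR adjusted p = 0.0084). Tnip1 was at 18.5 to 20.6 CPM with IL-4 and 19.2 to 24.2 CPM with IL-13, under the 25.5 to 29.9 CPM of the control, with log2 fold changes of -0.46 (edgeR adjusted p = 0.11) and -0.30 (edgeR adjusted p = 0.29). Irak2, Irak4, Traf6, Myd88 and Tollip had log2 fold changes between -0.22 and 0.29 with either cytokine.

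IL-13 and IL-4 were compared directly. No member was called (0 of 9 tested, against 0.0865% of all genes higher and 0.0216% lower), none was at an unadjusted p under 0.05 in edgeR's test, and DESeq2 called 0. The differences lay between -0.51 (Irak4, 95% interval -1.15 to 0.13) and 0.17 (Tnip3, 95% interval -0.20 to 0.54) on the log2 scale.

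At the matched time of 12 h, IFN-γ-primed LPS and IL-4 were set against each other in the fit of all 25 samples: 8 members were higher with IFN-γ-primed LPS and 1 lower, against 21.1% and 19.9% of all genes. Against IL-13, 8 members were called, 7 of them higher, where 41.0% of all genes were called in either direction. Irak3 differed by 3.88 and 4.13 and Tnfaip3 by 3.81 and 3.75 (log2, against IL-4 and IL-13). Traf1 was at 9.11 and 9.48, but these values have no firm size. It had 5 counts in all with IL-4 and 4 with IL-13, and passed the filter only through groups where it is high. With each sample left out, its value ranged from 8.82 to 9.83 against IL-4 and from 8.90 to 9.91 against IL-13. Both comparisons share the 12 h samples. The lower member was Tollip (-0.40 and -0.54), and its call against IL-4 was lost with DESeq2 (-0.41, adjusted p = 0.011), with no filter beyond 1 count (-0.38, edgeR adjusted p = 0.016) and in 5 of the fits that left out a sample. Traf6 was called against IL-4 (0.53, edgeR adjusted p = 0.0010) and not against IL-13 (0.35, edgeR adjusted p = 0.027), and without TMM factors not against IL-4 either (0.18, edgeR adjusted p = 0.27).

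RAW264.7 cells started from other levels than BMDMs. In the unstimulated line, 2 of 10 members were higher than in control BMDMs (Tnip3 and Traf1) and 7 lower, against 31.9% of all genes higher and 33.7% lower. Tnip3 was at 113 and 97.8 CPM in unstimulated RAW264.7, above the 11.8 to 23.9 CPM of control BMDMs in both samples, a log2 difference of 2.69 (SE 0.17, edgeR adjusted p = 2.7e-23) or 6.45-fold. Traf1 was at 11.1 and 14.9 CPM, against at most 3.25 CPM in control BMDMs (2.81, SE 0.37, edgeR adjusted p = 3.7e-10). With each sample left out the difference ranged from 2.38 to 3.52, the latter without control BMDM replicate 2, which held 6 of the 10 control counts. Tnfaip3 was at 10.1 and 13.8 CPM, which is 4.72-fold below control BMDMs (-2.24, SE 0.17, edgeR adjusted p = 4.6e-19), and Irak2 at 36.4 and 42.8 CPM was 3.48-fold below. Irak4 had 5 and 0 counts in these samples, so its call as lower has no firm size: the log2 difference was -2.08 without RAW264.7 control replicate 2, and without replicate 1 no count was left on that side. The differences of Irak3 (-0.79) and Traf6 (-0.49) were called, but not without TMM factors (-0.54, edgeR adjusted p = 0.029, and -0.24, edgeR adjusted p = 0.16) nor without control BMDM replicate 1, and Irak3 also not without RAW264.7 control replicate 1 and Traf6 not without RAW264.7 control replicate 2 or with DESeq2. Myd88 was at 0.34 (edgeR adjusted p = 0.043), and called without TMM factors (0.60, edgeR adjusted p = 4.5e-04). The cell types differ in macrophage marker level, mouse strain, medium and opposite-strand share of Rn45s as given above, and the part of these in the members' levels was not tested.

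LPS for 4 h upregulated 8 of the 9 members tested in RAW264.7 and downregulated 0, against 15.1% of all genes higher and 12.8% lower. No member was lower at an unadjusted p under 0.05 in edgeR's test, and DESeq2 called 0 lower. Traf1 went from 11.1 and 14.9 CPM to 232 and 229 CPM (log2 fold change 4.19, SE 0.14) and Tnfaip3 from 10.1 and 13.8 CPM to 127 and 124 CPM (3.43, SE 0.16). Tnip1 went from 10.1 and 13.0 CPM to 62.1 and 64.1 CPM (2.49, SE 0.18) and Irak2 from 36.4 and 42.8 CPM to 146 and 138 CPM (1.88, SE 0.12). In these 4 genes the stimulated samples stood well clear of the unstimulated ones.

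The other changes in RAW264.7 were smaller. Tnip3 went from 113 and 97.8 CPM to 163 and 139 CPM (0.55, SE 0.10, edgeR adjusted p = 3.8e-07), Irak3 from 11.1 and 14.9 CPM to 25.1 and 28.4 CPM (1.09, SE 0.22, edgeR adjusted p = 4.2e-06), Tollip from 39.9 and 34.1 CPM to 55.7 and 63.8 CPM (0.73, SE 0.15, edgeR adjusted p = 4.2e-06) and Myd88 from 54.1 and 63.0 CPM to 73.3 and 89.4 CPM (0.52, SE 0.13, edgeR adjusted p = 2.1e-04). The groups did not overlap in these 4 genes. With 2 samples a group the fit leans on the spread shared across genes, and with DESeq2 5 of the 8 were called: Irak3 (adjusted p = 0.019), Myd88 (adjusted p = 0.060) and Tollip (adjusted p = 0.013) were lost. Myd88 was also not called in the fit of all 25 samples (0.48, edgeR adjusted p = 0.013), without TMM factors, without control replicate 1 or without LPS replicate 2. Traf6 was at 42.3 and 33.0 CPM before and 46.2 and 38.1 CPM after LPS, with overlap (0.19, 95% interval -0.11 to 0.50). Irak4 had 5 and 1 counts after LPS and was not tested.

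**Figure D4:**
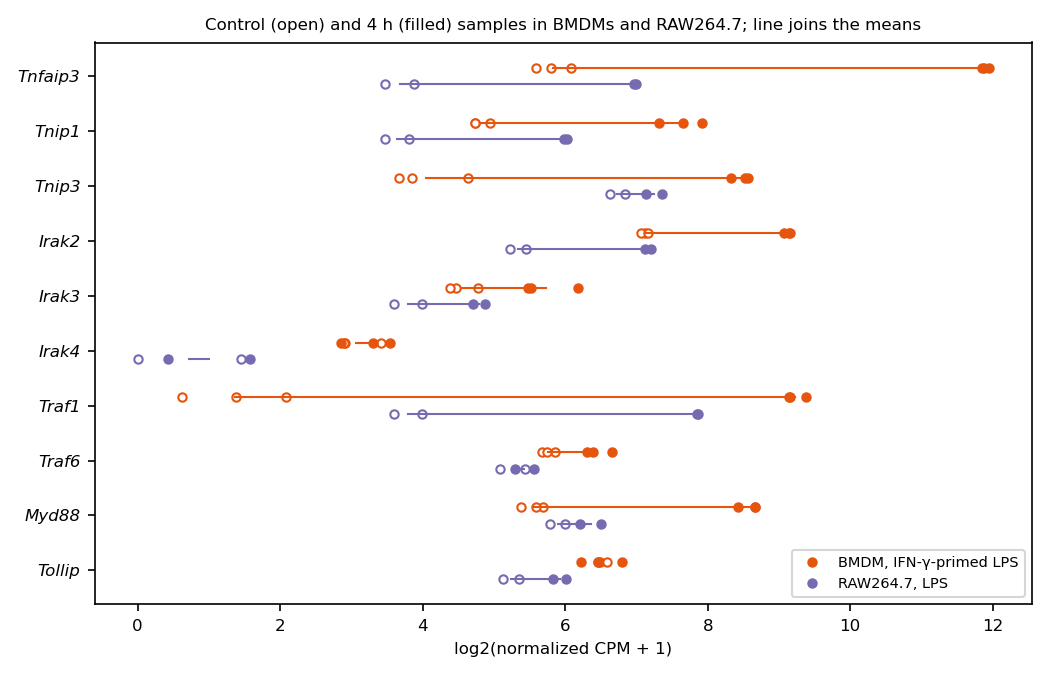
Level of each gene in control samples (open points) and after 4 h of stimulation (filled points) in BMDMs (orange, IFN-γ-primed LPS, 3 samples a group) and RAW264.7 (purple, LPS, 2 samples a group), as log2(normalized CPM + 1), with a line between the means. Tnip3 starts at 97.8 to 113 CPM in RAW264.7 and at 11.8 to 23.9 CPM in BMDMs, and Myd88 reaches 344 to 406 CPM in BMDMs and 73.3 to 89.4 CPM in RAW264.7.

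The size of the 4 h response was compared between the cell types by an interaction term over all 25 samples. The response of 4 members was smaller in RAW264.7 and that of 1 larger, against 15.3% of all genes lower and 9.75% higher on this term. The differences on the log2 scale were -4.18 for Traf1 (SE 0.37, edgeR adjusted p = 9.9e-16), -3.92 for Tnip3 (SE 0.21, edgeR adjusted p = 3.7e-26), -2.69 for Tnfaip3 (SE 0.24, edgeR adjusted p = 5.7e-16) and -2.58 for Myd88 (SE 0.20, edgeR adjusted p = 5.7e-18). With each sample left out the Traf1 value ranged from -4.89, without control BMDM replicate 2, to -3.77. In Tnip3 and Traf1 the smaller response began from a higher resting level, and in Tnfaip3 from a lower one. Tollip had the larger response in RAW264.7 (0.69, SE 0.20, edgeR adjusted p = 0.0048), which was not called in 5 of the fits that left out a sample (0.55 to 0.66). Tnip1 (-0.43, SE 0.28), Irak2 (-0.17, SE 0.16) and Irak3 (-0.19, SE 0.30) did not pass the test, and Traf6 was at -0.56 (edgeR adjusted p = 0.040). Cell type, mouse strain, medium, the absence of IFN-γ in RAW264.7 and whatever sets the libraries apart in Rn45s strand share cannot be told apart here.

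Levels were compared between members per kb of exon. In control BMDMs, Irak2 was the most abundant at 43.1 CPM per kb, followed by Myd88 at 23.5, Tollip at 20.8 and Tnfaip3 at 12.2 CPM per kb, and Traf1 was the least at 0.445 CPM per kb. At 1 h Tnfaip3 stood at 1166 CPM per kb, with Tnip3 at 92.4 and Irak2 at 92.1 CPM per kb next. At 24 h the order was Tnfaip3 at 146, Traf1 at 113, Irak3 at 86.6, Myd88 at 83.0 and Irak2 at 78.6 CPM per kb. In stimulated RAW264.7 it was Traf1 at 57.0, Irak2 at 44.4, Myd88 at 41.5, Tnip3 at 37.5 and Tnfaip3 at 27.2 CPM per kb. The ratio of Tnfaip3 to Tnip1 within a sample was 1.22 to 1.47 in control BMDMs, 27.9 to 37.0 at 1 h and 3.34 to 5.22 at 24 h, and in RAW264.7 it was 0.659 to 0.696 at rest and 1.27 to 1.34 after LPS.

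Other genes of the pathway, on lists drawn up by function, were read at 4 h of IFN-γ-primed LPS, where 26.0% of all genes were higher and 25.6% lower. Of the receptor complex, TIR adaptors and Irak1, 3 of 7 tested were higher and 2 lower: Cd14, the LPS coreceptor, rose by 3.89 and Ticam1, the adaptor TRIF, by 0.81, and Tlr4 fell by 1.31 and Irak1 by 0.41 (log2). Of the ubiquitin and kinase relay to IKK and TBK1, 11 of 19 were higher and 2 lower, with the ligase gene Peli1 up by 4.57 and Tank by 3.36, and Peli2 and Tab1 down, at -1.94 and -1.09. Of other A20 partners and deubiquitinases, 2 of 8 were higher, Rnf11 (1.02) and Tax1bp1 (0.58), both partners of A20, and 1 lower, Otulin (-0.77), which removes linear ubiquitin. Of other negative regulators, 8 of 12 were higher, led by Socs1 (6.35), a suppressor of cytokine signalling, and Nfkbie (5.34), an inhibitor of NF-κB, and 3 were lower, led by Tnfaip8l2 (-2.35) and Nlrc3 (-2.29). Of other TRAF genes, 3 of 4 were higher, Traf2 (2.52) and Traf5 (1.44) most. Values under 1 in this list are near in size to the shift of -0.53 that leaving out TMM factors gives at 4 h. The medians were 0.56, 0.71, 0.44, 1.98 and 1.15 in this order, beside 2.39 for the 10 members and -0.07 for all genes.

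**Figure D5:**
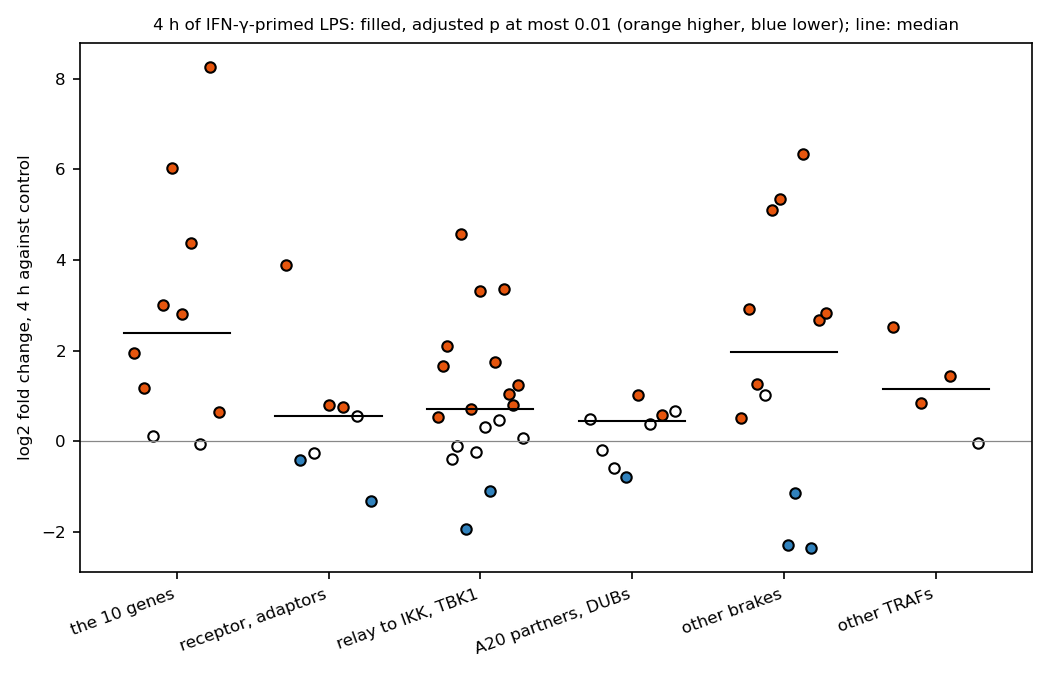
log2 fold change of each tested gene at 4 h of IFN-γ-primed LPS against control BMDMs, for the 10 genes and 5 lists of the pathway (DUB, deubiquitinase), with a line at each median. The line is at 2.39 for the 10 genes and at 1.98 for the other negative regulators, and each list has genes that were not called (white).

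In RAW264.7 after LPS, where 15.1% of all genes were higher and 12.8% lower, the same lists gave 3 of 6 higher and 1 lower for the receptor complex and adaptors, 3 of 17 higher for the relay, 2 of 7 higher and 1 lower for A20 partners, 8 of 11 higher for other negative regulators and 1 of 5 lower for other TRAF genes. The count of the other negative regulators called higher was the same as in BMDMs, which does not show that they were the same genes. With IL-4, 3 of 11 other negative regulators were higher and 1 lower, against 4.38% and 3.25% of all genes, and with IL-13 the counts were the same, against 5.61% and 4.49%.

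The genes whose levels ran most like those of a member, over the 9 condition means of 10563 genes, are given as a description. For Tnfaip3 these were Ccrl2, Zfp263 and Clcf1 (Pearson r 0.987, 0.976 and 0.973 on log2(CPM + 1)). For Irak3 they were Ptges, Fpr1 and Rnf144a (r 0.990, 0.989 and 0.985), and for Traf1 they were Vasp, Ccdc88b and Clec4e (r 0.995, 0.985 and 0.984). Tollip ran most like Arhgap22, Degs1 and Igf2r (r 0.990, 0.977 and 0.971). Irak4 ran most like Baz2a, Aga and Fam160b1 (r 0.995, 0.992 and 0.987). Condition means of Irak4 were 5.11 to 9.27 CPM in BMDMs and 0.867 and 1.17 CPM in RAW264.7, so the gap between cell types weighs on these r values. The 9 points share libraries and the response to LPS.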

How the data were processed

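Per the labels and the submitters' processing notes, reads of directional libraries were converted with CASAVA 1.8.2, trimmed with Trimmomatic 0.33 and aligned to mm10 with STAR 2.5.1. For each of the 25 samples the authors deposited raw counts of reads on genes, not normalized. The annotation release was not given in the sources used here. The sense-strand counts were used, with Rn45s left out, since it took 20.1% to 39.8% of counts. Reads that matched no gene feature, 62.7% to 69.1%, stayed out of library sizes. At 1502618 to 2532496 counts per sample, members with few counts (Irak4, Traf1 at rest) have wide errors.

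Samples were grouped by the labels. Genes passing filterByExpr were normalized by TMM and tested with edgeR 4.0.16 (R 4.3.3) by the robust quasi-likelihood test, with Benjamini-Hochberg adjustment over all genes tested in a contrast, and called at an adjusted p of at most 0.01. One fit took the 15 samples of the time course (9568 genes), another control, IL-4 and IL-13 (9252 genes), another RAW264.7 (9406 genes) and another all 25 samples, for contrasts across these (10612 genes). A standard error is the size of the log2 fold change divided by the root of its F statistic, and 95% intervals are 1.96 SE. Levels are TMM-normalized CPM over all 25 samples, with exon length from GENCODE M21. Promoters are from RefSeq (GRCm38.p6), with windows of 250 bases before and 50 after a start site.

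Every pair of replicates differed by more than counting noise (23 pairs, chi-square per degree of freedom 1.33 to 4.93). This cannot exclude repeated runs of 1 library that differ for technical reasons. The scripts were tested on simulated data. Alternatives were RLE normalization, DESeq2 1.42.0, no filter beyond 1 count, unstranded counts, Rn45s kept, the replicate number as a block, other samples in the fit, the study's fold cutoffs and each sample left out. Library sizes without TMM factors were added after seeing the data. All 10 members were examined in every contrast in which they passed the filter, and not every value is printed. Of the pathway lists, the 2 largest and 2 smallest called changes at 4 h are named, with at least 5 CPM in the higher group, and for 5 members the 3 genes with the highest r. The members and lists were chosen with earlier results of these data known. Python 3.11.15 and matplotlib 3.10.9 served for tables and figures.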

Additional observations from a re-analysis of the deposited data

Results flagged for a closer look

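The response of 5 members at 4 h differed between RAW264.7 cells (LPS alone) and BMDMs (IFN-γ-primed LPS) by an interaction term of edgeR's quasi-likelihood fit over 25 samples, called at an adjusted p of at most 0.01. On the log2 scale, as response in RAW264.7 minus response in BMDMs, the difference was -2.69 for Tnfaip3, -3.92 for Tnip3, -4.18 for Traf1, -2.58 for Myd88 and 0.69 for Tollip. Cell type, mouse strain, medium, IFN-γ and whatever sets the libraries apart in Rn45s strand share cannot be told apart.

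Counts on the strand opposite to the gene, which no comparison used, were in every sample above the highest control sample, and in sum by more than 3 counts, for Tnfaip3 at 1 and 4 h and for Tnip3 at 4 and 12 h. Tnfaip3 had 85 such counts over the 3 samples at 1 h and 54 at 4 h, against 2 in the control, which were 0.297% and 0.389% of its counts on both strands, against 0.633% in the control. For Tnip3 they were 8 at 1 h (0.400%), not above the control in every sample, 4 at 4 h (0.308%) and 7 at 12 h (0.588%), against 0 in the control. Other members had raised sums at some times without meeting this condition, such as Irak2 with 9 at 4 h against 3 and Traf1 with 7 at 12 h against 1 in the control.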

How the results depend on the processing

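No member called under the reported settings reversed its direction under any alternative, and the cause of the changes below was not tested. Over single members and contrasts, leaving out samples kept 2294 results on their side of the threshold, brought 9 past it and lost 26, and the other alternatives kept 1246, brought 15 past it and lost 53. With the study's fold cutoffs (log2 1.5 for IFN-γ-primed LPS, 0.7 for either cytokine, 2 for RAW264.7), which add a condition to the same test, fewer members were called: 4 at 1 h, 6 at 4 h (Irak3 and Traf6 lost), 6 at 12 and at 24 h (Irak2 and Tollip lost, so that none was lower), 2 from 1 to 4 h, 2 from 4 to 12 h, 0 from 12 to 24 h, 3 in RAW264.7, 5 between the unstimulated cell types, 6 for 12 h against either cytokine and 4 for the interaction. For the steps between times, 12 h against either cytokine, the unstimulated cell types and the interaction, the cutoff of log2 1.5 was a choice made here. The paper used log2 2 where it compared the LPS responses of RAW264.7 and BMDMs. For IL-4, 1 member, Tnip3, was called with no filter, with other samples in the fit and with the replicate block. For IL-13, 2 were called (Tnip3 and Tnfaip3) with RLE, no filter, other samples in the fit or no TMM factors, and 0 with DESeq2. For RAW264.7, DESeq2 called 5.

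With each sample left out, the number called against the control was 7 (1 h), 8 (4 h), 7 to 9 (12 h) and 7 to 8 (24 h). It was 6 from 1 to 4 h, 6 to 7 from 4 to 12 h and 2 to 3 from 12 to 24 h, and 0 to 1 with IL-4, 0 to 2 with IL-13 and 0 between IL-13 and IL-4. IL-4 reached 1 without control replicate 2, IL-13 replicate 1 or IL-13 replicate 3. IL-13 dropped to 0 without control replicate 1 and reached 2 without IL-13 replicate 1 or IL-13 replicate 3. The range was 7 to 8 in RAW264.7, 8 to 9 for 12 h against IL-4, 8 against IL-13, 7 to 9 between unstimulated cell types and 4 to 5 for the interaction, and 9 to 10 members kept their peak time. A fit that leaves 1 RAW264.7 sample in a group assumes that it varies like the other group.

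Same-numbered samples deviated together little on average (mean correlation 0.0215 in the time course, against -0.0108 for other pairs, and 0.00813 against -0.00408 with IL-4 and IL-13). In the time course, 3 of 30 same-numbered pairs had a correlation over 0.1, and 2 of 60 other pairs. These correlations do not settle whether the numbers pair the samples. The replicate block changed no count of called members but that of IL-4, which went from 0 to 1. Depth limits Irak4, and Traf1 at rest.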
